A study of Mus musculus with 30 samples.

Results

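Expression of 8 transcription factor genes of the primitive streak and mesendoderm was followed in mouse secondary iPSCs that left pluripotency and were then challenged to return to it. The 8 genes, T, Eomes, Mixl1, Gsc, Lhx1, Evx1, Mesp1 and Foxa2, were chosen by name as regulators of this lineage, and all 8 were found among the 22477 genes of the RNA-seq table. Gene positions are given from Gencode M21 on mm10. The secondary iPSCs carry transgenes for Oct4, Sox2, Klf4 and cMyc (OSKM) under dox control, a GFP reporter at the Nanog locus and constitutive nuclear RFP, and all groups share these alleles. In the time course, RNA was collected at 0, 24, 36, 48, 60, 72 and 96 h after 2i/LIF was withdrawn in N2B27 medium. In the reversion arm, cells differentiated for 0, 24, 48 or 96 h were moved back to serum/LIF and collected 48 h later, either without dox (–dox) or with OSKM induced by 2 µg/ml dox (+dox). This gave 15 conditions with 2 replicates each, 30 samples in all. Stock cultures grew on feeder layers of mouse embryonic fibroblasts. For the colony assay of the same study, cells were plated on gelatin before withdrawal and re-seeded onto such feeders in serum/LIF. Whether the RNA of any condition includes feeder RNA is not stated in the sources used here.

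In the gastrulating mouse embryo, Wnt3 and Nodal signalling in the posterior epiblast sets up the primitive streak, where epiblast cells leave the epithelium as mesoderm or definitive endoderm. The T-box factors T (Brachyury) and Eomes and the homeobox factor Mixl1 act early in this step. Gsc, Lhx1 and Foxa2 mark the anterior streak and its endoderm and axial mesoderm, Evx1 the posterior streak, and Mesp1 the nascent cardiac and cranial mesoderm. T is also a direct target of Wnt and beta-catenin signalling, and 2i medium contains a GSK3 inhibitor that activates this pathway. Eomes has a separate role in trophoblast.

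Each gene has a single FPKM value per condition (fragments scaled by transcript length and by library size), into which Cuffdiff combined both replicates. No value below therefore has a replicate spread or a test, and each difference compares combined values only. Changed genes are those with values at least 2-fold apart of which the higher was at least 1 FPKM, and genes whose higher value reached 1 FPKM are called assessed. The read depth is not given, but the low values of long genes with a single transcript form steps, about what 1 fragment of the deeper replicate is worth. A 2 kb gene at 1 FPKM stood at 30.3 to 50.3 such steps during withdrawal and after re-seeding at 48 and 96 h. After re-seeding at 0 and 24 h it stood at 91.4 to 105.8, so low values there were measured more finely. The steps are a rough scale and not counts.

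The 8 regulators were low throughout. Of their 120 values, 14 reached 1 FPKM and 20 were listed at 0. T, Eomes, Gsc and Foxa2 reached 1 FPKM in at least 1 condition, as did 66.1% of all genes, whereas Mixl1, Lhx1, Evx1 and Mesp1 never did. The highest values lay in different conditions. Gsc and Eomes were highest at 0 h in 2i/LIF, T in 48 h –dox cells, and Foxa2 in 96 h –dox cells.

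**Figure D1:**
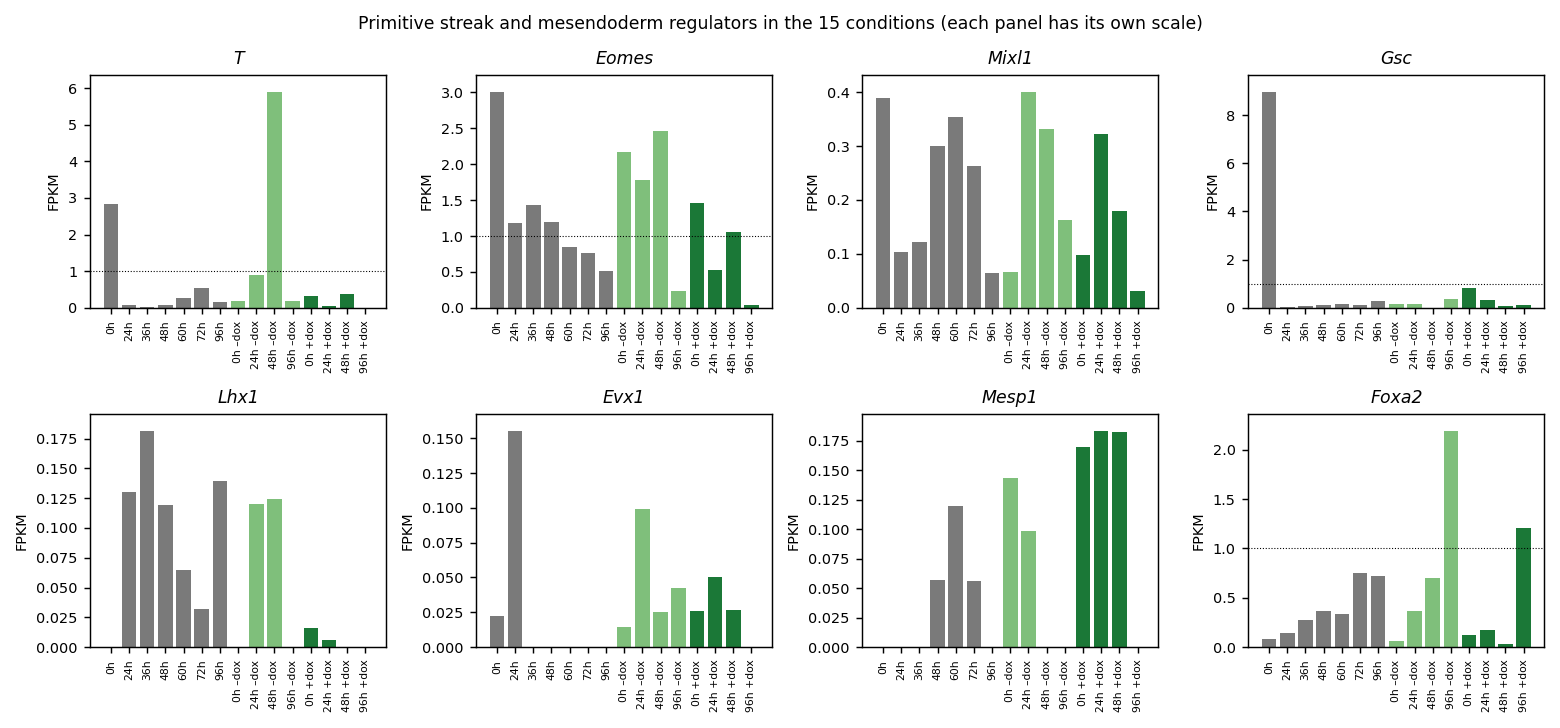
FPKM of the 8 genes in the 15 conditions, with the time course in grey, –dox in light green and +dox in dark green. Each bar is 1 combined value of 2 replicates, the dotted line marks 1 FPKM and each panel has its own scale. Gsc stands out at 0 h (8.97 FPKM), T at 48 h –dox (5.90 FPKM) and Foxa2 at 96 h –dox (2.19 FPKM), while the axes of Mixl1, Lhx1, Evx1 and Mesp1 end below 0.5 FPKM.

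The sequence in front of the RefSeq start sites was searched for short motifs of Wnt, Nodal, T-box and pluripotency factors, in the 250 bases before the start of 7 of the 8 genes (GRCm38.p6, the build of the mapping). The letters searched, on both strands, were CTTTGA for TCF/LEF factors of the Wnt pathway, AGGTGTGA for T-box factors, TGTNNATT for FOXH1 of the Nodal pathway, ATGCAAAT for the octamer of Oct4 and TATAAA for the TATA box. The 4 genes that reached 1 FPKM are shown with Mesp1, the only other of the 7 to hold the TCF/LEF letters. Capitals mark the TCF/LEF letters in T and Mesp1 and the TATAAA letters in Gsc, and each sequence runs 5′ to 3′ up to the start site. Foxa2 has 3 start sites, of which the most upstream is shown.
T: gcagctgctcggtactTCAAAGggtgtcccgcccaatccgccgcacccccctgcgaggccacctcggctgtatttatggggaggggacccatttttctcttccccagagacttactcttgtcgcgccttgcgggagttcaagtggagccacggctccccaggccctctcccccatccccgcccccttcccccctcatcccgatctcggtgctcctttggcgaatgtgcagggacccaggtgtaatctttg
Eomes: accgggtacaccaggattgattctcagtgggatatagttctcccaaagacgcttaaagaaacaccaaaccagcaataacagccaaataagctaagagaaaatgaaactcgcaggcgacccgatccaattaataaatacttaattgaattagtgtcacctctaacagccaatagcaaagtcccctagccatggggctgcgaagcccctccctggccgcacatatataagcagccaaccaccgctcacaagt
Gsc: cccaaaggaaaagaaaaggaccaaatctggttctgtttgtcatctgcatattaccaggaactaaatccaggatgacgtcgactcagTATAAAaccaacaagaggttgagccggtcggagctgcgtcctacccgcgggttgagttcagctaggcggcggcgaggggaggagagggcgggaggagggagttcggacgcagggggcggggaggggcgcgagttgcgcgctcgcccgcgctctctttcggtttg
Foxa2: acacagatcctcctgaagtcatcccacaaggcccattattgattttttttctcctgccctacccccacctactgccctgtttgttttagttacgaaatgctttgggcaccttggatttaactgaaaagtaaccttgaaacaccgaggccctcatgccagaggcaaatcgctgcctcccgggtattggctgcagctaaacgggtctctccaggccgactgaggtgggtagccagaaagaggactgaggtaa
Mesp1: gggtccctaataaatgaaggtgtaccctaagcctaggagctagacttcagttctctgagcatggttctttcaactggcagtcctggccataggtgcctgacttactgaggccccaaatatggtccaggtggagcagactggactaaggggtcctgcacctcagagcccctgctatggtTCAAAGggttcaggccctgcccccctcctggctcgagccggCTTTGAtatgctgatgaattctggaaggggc
The windows are chr17:8434173-8434422 on the plus strand for T, chr9:118477939-118478188 on the plus strand for Eomes, chr12:104473237-104473486 on the minus strand for Gsc, chr2:148046970-148047219 on the minus strand for Foxa2 and chr7:79793591-79793840 on the minus strand for Mesp1. T held the TCF/LEF letters from 234 to 229 bases before its start, and Mesp1 at 72 to 67 and again at 31 to 26 bases. These letters stand in 13.8% of all 32851 promoter windows. The TATAAA letters of Gsc lay 164 to 159 bases before the start, and they stand in 12.4% of windows. Evx1 held the octamer letters at 126 to 119 bases (1.6% of windows), and the third start of Foxa2 held the TATAAA letters at 208 to 203 bases. No window of the 7 genes held the T-box letters (1.12% of windows) or the FOXH1 letters (10.9%). The RefSeq start of Mesp1 lies inside the gene as given by Gencode, so that both of its matches fall within that gene, and the window of Gsc overlaps its Gencode gene at the start. A match describes these letters only and says nothing of binding. Variants of the letters were not searched for, so that a window without a match may still hold one.

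Withdrawal of 2i/LIF was accompanied by lower T, Eomes and Gsc at every later timepoint. These were the 3 regulators that reached 1 FPKM in the time course and all 3 counted as changed between some pair of timepoints, as did 60.7% of all genes assessed. Each of the 6 later timepoints had all 3 at least 2-fold below 0 h. Of all genes assessed, 14.3%, 16.8%, 17%, 16.1%, 15.9% and 16.4% were lower by this rule at 24, 36, 48, 60, 72 and 96 h. T and Gsc at all 6 timepoints, and Eomes at 60, 72 and 96 h, passed the 1 FPKM minimum through the 0 h value alone, so that these counts follow in part from the minimum. With 1 FPKM added to both values, the calls of Eomes at 24, 36 and 48 h ended, at log2 ratios of -0.88, -0.72 and -0.87. Because the 6 comparisons share the 0 h value, they are not separate observations. Without 0 h, 1 regulator, Eomes, still counted as changed among the other 6 timepoints.

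Gsc, a homeobox repressor of the organizer and anterior streak (chr12:104471209-104473330, minus strand), had the steepest loss of the 3. Its value was 8.97 FPKM at 0 h, dropped to 0.0469 at 24 h, then read 0.0601, 0.123, 0.156, 0.117 and 0.277 at 36, 48, 60, 72 and 96 h. In re-seeded cells Gsc stood at 0.153, 0.142, 0 and 0.374 FPKM at 0, 24, 48 and 96 h –dox, and at 0.809, 0.306, 0.0583 and 0.126 with dox. The 0 h value thus stood alone, 11.1-fold above the next highest, 0 h +dox. The ratio of 0 h to 24 h was 191, but the 24 h value lies at about 1 step, against 161 steps at 0 h. With 0.1 FPKM added to both values, 3 of 12884 genes had a larger ratio than Gsc. The gene next to Gsc, the lncRNA Gm10000, was listed at 0.165 FPKM at 0 h and at 0 in the other 14 conditions.

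T, the T-box factor that drives posterior mesoderm and notochord (chr17:8434423-8442496, plus strand), fell with Gsc, with higher values again at 60 and 72 h. It measured 2.85 FPKM at 0 h, 0.0814 at 24 h and 0.0346 at 36 h, followed by 0.0653, 0.255, 0.531 and 0.150 at 48, 60, 72 and 96 h. At 24 h 2.86% of the 0 h value was left and at 72 h 18.7%. T2, the gene beside T, was also highest at 0 h, with 1.36 FPKM, and at most 0.312 in the other conditions. A further gene model, LOC115486424, overlaps T in RefSeq, and the use of strand in the quantification is not stated, so that their reads cannot be told apart.

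Sp5, Axin2, Cdx1 and Nkx1-2 were also higher at 0 h than at 24 h, and are named here after their values were seen. Sp5, a Wnt target and repressor, fell from 26.7 FPKM at 0 h to 0.185 at 24 h, and Axin2, the feedback inhibitor of the pathway, from 23.7 to 5.00 FPKM. The caudal factor Cdx1 fell from 9.16 to 0.139 FPKM and Nkx1-2, of the caudal epiblast, from 4.80 to 0.0910. Not every gene tied to Wnt followed, as Lef1, a nuclear effector of the pathway, was higher at 24 h (7.40 and 25.4 FPKM). The Wnt antagonist Dkk1, below the 1 FPKM minimum, was lower at 24 h (0.637 and 0.0739 FPKM). Of 9 inhibitors and feedback genes of Nodal, Wnt and BMP, 4 of 6 assessed were lower at 24 h and none higher. Of all genes assessed, 14.3% were lower. Among the 4, Sp5 passed the minimum through the 0 h value alone. The median log2 ratio of all 9 genes, assessed or not, was -1.47, against -0.01 for all genes assessed. Of 24 further streak and nascent mesoderm genes, 5 of 10 assessed were lower and 2, Dll1 and Dll3, higher, where 14.3% and 8.64% of all genes were. All 5 lower genes passed the minimum through the 0 h value alone, and Dll1 through the 24 h value alone.

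Fibroblast markers had the same timing. Of 13 such genes, 10 of 12 assessed were lower at 24 h than at 0 h and 2 higher, against the same shares of all genes. Twist2 and Pdgfrb passed the minimum through the 0 h value alone. The summed level of the 13 was 805.8 FPKM at 0 h and 99.9 at 24 h, and Col1a1, the most abundant at 0 h, fell from 228.7 to 21.0 FPKM. At 24 h 9.17% of Col1a1 and 13.5% of Prrx1 was left, and 2.86% of T and 0.523% of Gsc, the last pair from about 3 steps and 1 step. The order differed later, with 0.964% of Col1a1, 2.51% of Prrx1, 8.96% of T and 1.74% of Gsc left at 60 h. After re-seeding at 0 and 24 h, the summed level of the fibroblast markers was 12.8 to 40.4 FPKM. Pluripotency genes were also lower at 24 h than at 0 h, with 7 of 11 assessed lower and 1, Utf1, higher, against the same shares. Fewer cells of a type and less RNA per cell cannot be told apart in such bulk samples, and the part of fibroblast RNA in the 0 h values of T and Gsc was not tested.

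**Figure D2:**
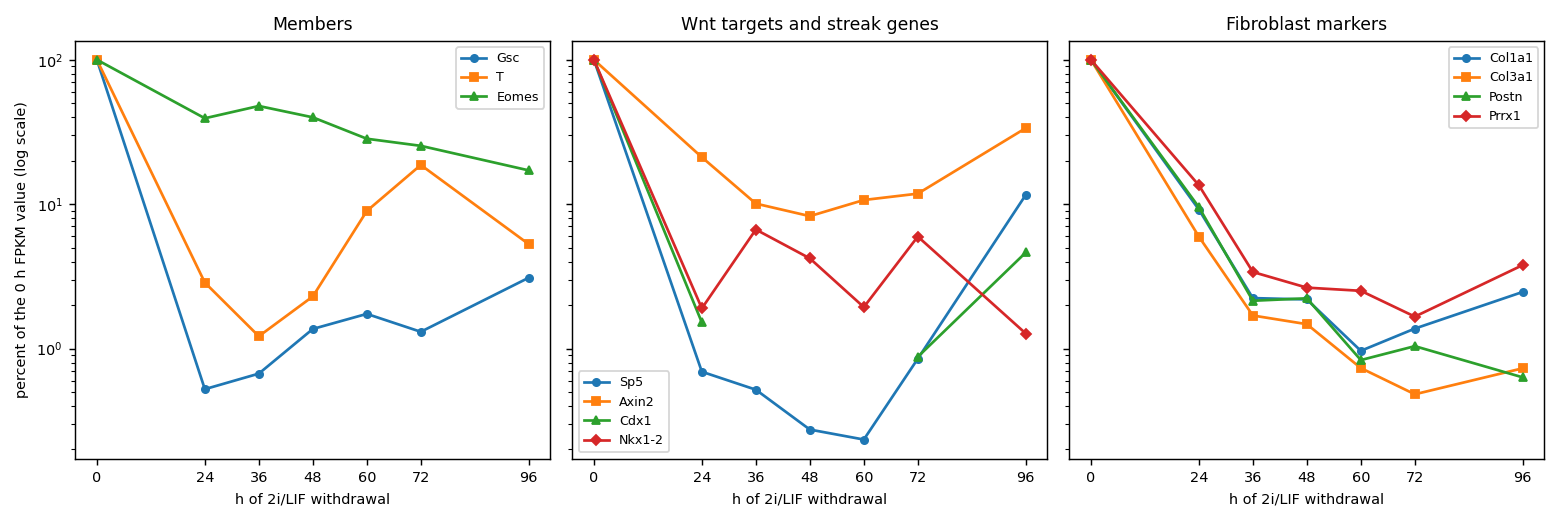
FPKM as a percent of the 0 h value (log scale) against h of 2i/LIF withdrawal, for T, Eomes and Gsc, for Wnt targets and streak genes, and for fibroblast markers. Each point is 1 combined value and values listed at 0 are not drawn. Eomes keeps 39.3% at 24 h, while Gsc (0.523%), T (2.86%), Sp5 (0.691%) and Cdx1 (1.51%) lie below the fibroblast genes Col1a1 (9.17%) and Col3a1 (5.95%) at 24 h, whereas at 60 h T (8.96%) lies above Col1a1 (0.964%).

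T was highest of all in cells that had differentiated for 48 h and were returned to serum/LIF without dox. Its values at 0, 24, 48 and 96 h –dox were 0.191, 0.907, 5.90 and 0.185 FPKM, and with dox 0.314, 0.0472, 0.390 and 0. The 48 h –dox value was 2.07-fold the 0 h value and 24 h –dox was the next highest after that. Against 48 h +dox it was 15.1-fold higher, and against the 48 h cells that were re-seeded 90.3-fold higher. With 0.1 FPKM added to both values, 34 of 12665 genes had a larger ratio than T in the first comparison. In the second, against the re-seeded 48 h cells, 19 of 12843 genes had a larger one. With 1 FPKM added to both values the log2 ratio of T in this second comparison was 2.70 in place of 6.50. The 48 h –dox value was also 39.3-fold above 96 h cells, collected after the same total time but kept in N2B27. About 178 steps lie behind this value, 12 behind 48 h +dox and 2 behind 48 h.

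No regulator was called higher with dox at any starting time. At 48 h, T and Eomes were the 2 regulators assessed and both were at least 2-fold lower with dox, as were 6.46% of all genes, while 6.56% were higher. At 24 h Eomes, the only regulator assessed, was lower, as were 3.4% of genes. T at 48 h and Eomes at 24 h passed the minimum through the –dox value alone. With 1 FPKM added to both values, the log2 ratio of Eomes was -0.75 at 48 h and -0.87 at 24 h, so that both of its calls ended and that of T was left. At 0 h and 96 h 1 regulator each was assessed, Eomes and Foxa2, and neither counted as changed, where 9.23% and 17.7% of genes did. Below the 1 FPKM minimum, T at 24 h was 0.907 FPKM –dox and 0.0472 +dox, and Gsc at 0 h was 0.153 FPKM –dox and 0.809 +dox, about 9 and 39 steps.

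Of the ligands of streak induction, Wnt3, Wnt8a, Fgf8 and Nodal were highest in the same condition as T. Wnt3, required for streak formation, measured 3.28 FPKM at 48 h –dox and 0.587 at 48 h +dox, and at most 0.922 in the other conditions. Wnt8a, a ligand of the posterior epiblast and streak, measured 3.88 and 0.0862 FPKM. Fgf8, needed for cells to leave the streak, measured 8.99 and 0.484 FPKM. Nodal measured 61.5 and 23.3 FPKM, and its feedback inhibitor Lefty1 96.2 and 32.4 FPKM, with its highest value, 306.1 FPKM, at 24 h –dox. Other ligands peaked elsewhere. Bmp4 (4.48 and 2.05 FPKM at 48 h –dox and +dox) and Wnt3a (0.154 and 0.127) were highest at 96 h –dox, Gdf1 (1.74 and 2.80) at 60 h and Gdf3 (26.0 and 25.8) at 24 h. Genes highest at 48 h –dox were 4 of the 22 upstream genes that reach 1 FPKM (18.2%), against 4.23% of all genes. As many, Furin, Smad3, Smad4 and Tcf7l2, were highest at 96 h +dox, against 8.08% of all genes.

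Among the inhibitors and feedback genes, Sp5 measured 8.48 FPKM at 48 h –dox and 0.113 at 48 h +dox, Axin2 6.75 and 0.683 FPKM, and the Wnt antagonist Dkk1 2.08 and 0.0642 FPKM. Of the 24 upstream signalling genes, 22 were assessed at 48 h and 6 were lower with dox (Nodal, Wnt3, Wnt8a, Bmp4, Fgf8 and Lef1) and 1 higher (Pcsk6), where 6.46% and 6.56% of all genes were. Over all 24 the median log2 ratio was -0.13, against -0.02 for all genes assessed. The 9 inhibitors and feedback genes, assessed or not, had a median of -1.57. Of the 7 assessed, 5 were lower and none higher, against the same shares. Of these lower genes Wnt3, Wnt8a, Fgf8 and Lef1, and Dkk1, Axin2, Sp5 and Nog, passed the minimum through the –dox value alone, so that both counts follow in part from the minimum. Among the receptors, Smads and nuclear effectors of this list Lef1 alone was called. Of those not called, Ctnnb1 measured 159.0 FPKM –dox and 139.5 +dox, and Smad4 35.4 and 34.8 FPKM.

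Of the 24 streak and nascent mesoderm genes, 9 were assessed at 48 h. Of these 3 were lower with dox (Fgf17, Hand1 and Aplnr), where 6.46% of all genes were, and 1, Mesp2, was higher. Hand1 and Aplnr passed the minimum through the –dox value alone, and Mesp2 through the +dox value alone. These counts follow in part from the minimum. The median log2 ratio of the list was -0.26. Tbx6, a T-box factor of paraxial mesoderm, measured 0.670 FPKM at 48 h –dox and 0.605 at 48 h +dox, and Msgn1 was listed at 0 in both. Of the 17 genes of this list that reach 1 FPKM, 0 were highest at 48 h –dox, where 4.23% of all genes were, and with so few genes nothing is read from this count.

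Other cell states differed between the same cells. Of 11 pluripotency genes, 7 of 10 assessed were higher in 48 h +dox, where 6.56% of all genes were, and none lower, among them Esrrb with 8.31 FPKM –dox and 56.2 +dox. The 7 include Pou5f1, Sox2 and Klf4, which are also transgenes and have a single row each in the table. The fibroblast list summed to 155.5 FPKM –dox and 79.6 +dox, of which Acta2 made up 136.4 and 60.2. Of its genes 5 of 8 assessed were lower with dox, where 6.46% of all genes were, and 1, Thy1, was higher. The 5 were Col1a1, Col1a2, Postn, Twist2 and Acta2, of which Postn and Twist2 passed the minimum through the –dox value alone. Of the extraembryonic endoderm genes 3 of 5 assessed were lower with dox, where 6.46% of all genes were, among them Dab2 with 21.8 and 5.19 FPKM, and 1 was higher, Lama1 with 2.21 and 7.92 FPKM. Sox7 and Pth1r, also among the 3 lower, passed the minimum through the –dox value alone. The part of these differences in those of T and its ligands was not tested.

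**Figure D3:**
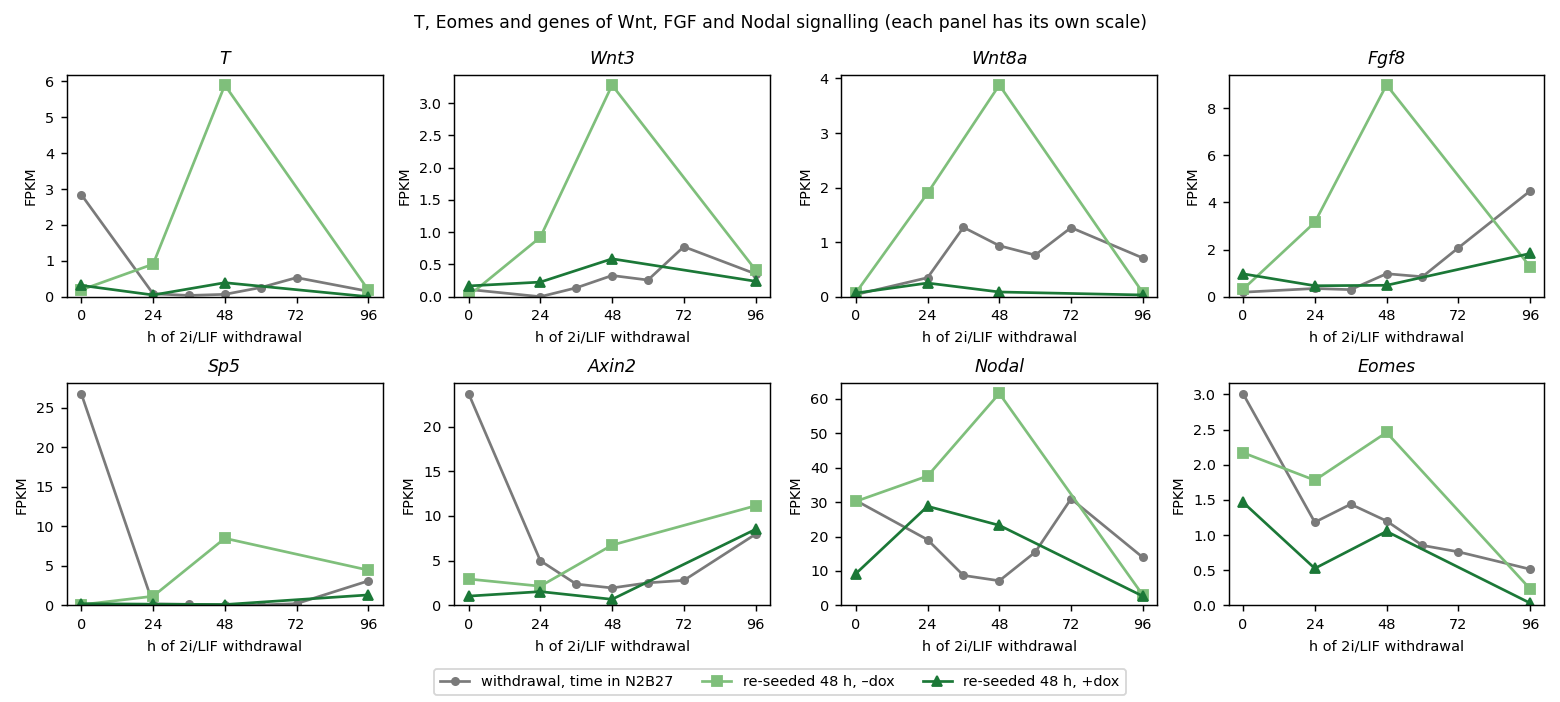
FPKM against h of 2i/LIF withdrawal for T, Eomes and genes of Wnt, FGF and Nodal signalling, with the time course in grey, –dox in light green and +dox in dark green. Each point is 1 combined value and each panel has its own scale. T, Wnt3, Wnt8a, Fgf8 and Nodal peak at 48 h –dox, where Nodal reached 61.5 FPKM, and Sp5 and Axin2 are higher there than at 48 h +dox but highest at 0 h.

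Eomes, the T-box factor that acts upstream of Mesp1 and of definitive endoderm (chr9:118478212-118486132, plus strand), reached 1 FPKM in 9 of 15 conditions, more than any of the other 7 regulators. Over the time course it measured 3.01, 1.18, 1.44, 1.20, 0.854, 0.762 and 0.515 FPKM, so that most of the difference lay before 24 h. At 0, 24, 48 and 96 h –dox it stood at 2.17, 1.78, 2.46 and 0.236 FPKM, and with dox at 1.47, 0.526, 1.05 and 0.0341.

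Eomes was lower with dox at all 4 starting times, by 1.48-, 3.38-, 2.34- and 6.93-fold. The last pair lies below 1 FPKM. With 0.1 FPKM added to both values, 115 of 12708 genes had a larger ratio of –dox to +dox at 24 h, and 604 of 12665 at 48 h. Ordered by level, neighbouring Eomes values differed less than 2-fold from 0 h down to 96 h, and the 96 h –dox and 96 h +dox values lay apart below. A lncRNA, Gm33408, overlaps Eomes in RefSeq, with the same limit as for T.

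Return to serum/LIF without dox left different regulators high according to when the cells were re-seeded. From 0 h, T and Gsc were 14.9- and 58.6-fold lower than in the 2i/LIF cells, while 10.1% of all genes were lower. From 24 h Eomes, the only regulator assessed, did not count as changed, where 25.5% of genes did. From 48 h T and Eomes were higher, the latter by 2.05-fold (15.3% of genes), and from 96 h Foxa2 (12.4% of genes higher and 11.2% lower). T and Foxa2 passed the minimum in these comparisons through their –dox value alone, and T and Gsc from 0 h through the 2i/LIF value alone, so that these calls follow in part from the minimum. The calls of Eomes from 48 h and of Foxa2 from 96 h ended with 1 FPKM added to both values, at log2 ratios of 0.65 and 0.89, and that of Eomes also with 0.1 FPKM added (0.98). Medium, time, re-seeding and possibly feeders differ together in these comparisons and cannot be told apart. The fibroblast list summed to 805.8 FPKM at 0 h and 12.8 at 0 h –dox. The part of fibroblast RNA in the drops of T and Gsc from 0 h was not tested.

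Against cells collected after the same total time but kept in N2B27, Eomes was 2.34-fold higher in 24 h –dox than at 72 h, where 5.4% of genes were higher, a call that ended with 1 FPKM added to both values (log2 ratio 0.66). T and Eomes were higher in 48 h –dox than at 96 h, where 6.36% of genes were higher and 6.51% lower. All 3 of these calls passed the minimum through the –dox value alone. Against 0 h –dox, Eomes, the only regulator assessed, did not count as changed at 24 h –dox (20.1% of genes did) and T was 30.9-fold higher at 48 h –dox (15.1% of genes were higher). At 96 h –dox Foxa2 was 34.0-fold higher (21.5% of genes) and Eomes 9.19-fold lower (21.7% of genes). Each of these 3 calls passed the minimum through the higher value alone, and Eomes, also assessed at 48 h –dox, did not count as changed there.

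Foxa2, a forkhead factor of anterior streak, endoderm and node (chr2:148042877-148046969, minus strand), was lowest early in the time course and highest late. It measured 0.0778, 0.142, 0.274, 0.365, 0.333, 0.753 and 0.717 FPKM over the time course, never reaching 1 FPKM. At 0, 24, 48 and 96 h –dox it stood at 0.0643, 0.368, 0.705 and 2.19 FPKM, in the order of the time spent in withdrawal. With dox it stood at 0.124, 0.170, 0.0328 and 1.20 FPKM. The 96 h –dox value was 3.05-fold that of the 96 h cells and 1.82-fold that of 96 h +dox. About 74 steps lie behind it, and 22 and 1 behind the 48 h –dox and +dox values.

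Endoderm genes differed in both directions in 96 h –dox cells. Sox17, which specifies definitive endoderm, measured 0.733 FPKM at 96 h, 6.84 at 96 h –dox and 1.01 at 96 h +dox. Gata6 measured 1.10, 3.37 and 2.22 FPKM, whereas Hhex measured 3.02, 0.462 and 1.63. Of 13 definitive endoderm and axial genes, 2 of 7 assessed were higher than at 96 h and 2 lower, where 12.4% and 11.2% of all genes were. Sox17 passed the minimum through the 96 h –dox value alone, and Hhex and Foxj1 through the 96 h value alone. Foxa1, Shh, Noto and Sebox, which mark endoderm, axial mesoderm or mesendoderm, were below 0.1 FPKM at 96 h –dox. These 4 genes stood at 0.312 FPKM or less in all 15 conditions, so that their low values are not particular to these cells. Of 12 extraembryonic endoderm genes 1 of 6 assessed was higher and 2 lower, against the same shares. Thbd passed the minimum through the 96 h –dox value alone, and Amn and Cubn through the 96 h value alone. The 12 genes summed to 41.4 FPKM at 96 h –dox, of which Dab2 made up 28.5, and to 39.5 FPKM at 96 h, of which Dab2 made up 26.2. Afp, Ttr, Apob and Hnf4a stood at 0.121, 0.225, 0 and 0.0136 FPKM at 96 h –dox.

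Trophoblast markers were high in the 96 h –dox cells, in which Eomes was at 0.236 FPKM. Of the 9 genes of that list, 8 were higher than at 96 h, where 12.4% of all genes were, and all but Tead4 were highest of the 15 conditions there, as were 17.3% of all genes that reach 1 FPKM. They summed to 280.8 FPKM, against 31.9 at 96 h and 93.5 at 96 h +dox. Cdx2, Elf5 and Hand1 passed the minimum through the 96 h –dox value alone, so that the count of 8 follows in part from it. Hand1 measured 38.2 FPKM, against 0.590 at 96 h, Ascl2 40.0 against 1.40, and Elf5 3.44 against 0.145. Hand1 and Cdx2 are also among the 24 streak and nascent mesoderm genes. Of that list 7 of 13 assessed were higher than at 96 h and 5 lower, against 12.4% and 11.2% of all genes. Of those called, all but Snai1 and Dll1 passed the minimum through 1 value alone, so that both counts follow in part from it. Of its 17 genes that reach 1 FPKM, 6 (35.3%) were highest at 96 h –dox, as were 17.3% of all genes. Fibroblast markers summed to 406.8 FPKM there, of which Acta2 made up 255.2, against 129.9 FPKM at 96 h. The part of RNA from other cell types in the Foxa2 value was not tested.

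**Figure D4:**
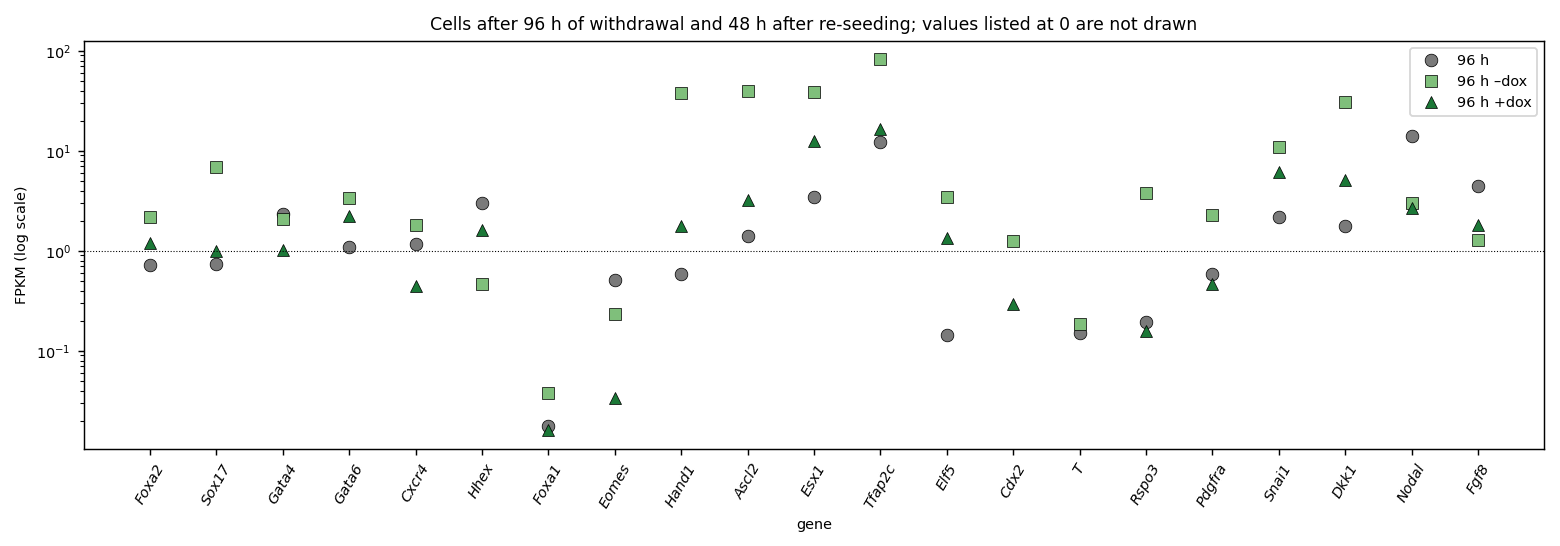
FPKM (log scale) at 96 h, 96 h –dox and 96 h +dox of Foxa2, Eomes and T with endoderm, trophoblast, mesoderm and signalling genes. Each point is 1 combined value and the dotted line marks 1 FPKM. Foxa2 (2.19 FPKM), Sox17 (6.84) and Hand1 (38.2) are highest at 96 h –dox, where Eomes is at 0.236 FPKM.

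Mixl1, Lhx1, Evx1 and Mesp1 stayed below 1 FPKM in all 15 conditions. Mixl1, a homeobox gene of the early streak (chr1:180693043-180697034, minus strand), had the highest level of the 4. Its lowest, median and highest values were 0.0318, 0.180 and 0.401 FPKM, at 96 h +dox, 48 h +dox and 24 h –dox. At 48 h –dox, where T peaked, it measured 0.332 FPKM, about 11 steps. In the time course it measured 0.388 FPKM at 0 h and 0.353 at 60 h, with 0.103 at 24 h between them.

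Lhx1, a LIM homeobox gene of anterior streak and head organizer (chr11:84518284-84525535, minus strand), ran from 0 in 5 conditions to 0.181 FPKM at 36 h, with a median of 0.0324. Evx1 (chr6:52313498-52318378, plus strand) was listed at 0 in 6 conditions and highest at 24 h with 0.155 FPKM, about 8 steps. The antisense lncRNA Evx1os overlaps it, with the same limit as for Eomes. Mesp1 (chr7:79792241-79793788, minus strand) was listed at 0 in 7 conditions and highest at 24 h +dox with 0.183 FPKM, about 9 steps. Its neighbour Mesp2, a bHLH factor of somite formation, reached 1.78 FPKM at 0 h +dox and 1.71 at 0 h –dox, and was listed at 0 at 0 h. The finest measurements were those of cells re-seeded at 0 and 24 h, in which Mixl1 stood at about 7 steps at 0 h –dox and 41 at 24 h –dox, and at 9 and 32 steps with dox. Lhx1 stood at 0 steps at 0 h –dox and 22 at 24 h –dox. As the 4 genes never reached 1 FPKM, no call was made on them.

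For the 4 regulators above 1 FPKM, the 3 genes with the most similar pattern were found by Pearson's r of log2(FPKM + 0.1) over the 15 conditions. All conditions come from 1 cell line, and r is given as a description. They were Efr3a (r = 0.846), Zfpm2 (0.824) and Nefm (0.807) for T, and Scml2 (0.886), Tulp2 (0.880) and Dcbld1 (0.867) for Eomes. For Gsc they were Snhg18 (0.947), Hoxb13 (0.886) and Tex2 (0.876), and for Foxa2 Gprc5c (0.939), Crb2 (0.930) and Epn3 (0.929). Zfpm2 shared both peaks of T, with 0.768 FPKM at 0 h and 1.66 at 48 h –dox and at most 0.332 in the other conditions. Hoxb13 shared the single peak of Gsc, with 1.48 FPKM at 0 h and at most 0.258 in the other conditions. With log2(FPKM + 1), 5 of the 12 genes were found again, and over the 7 timepoints alone none.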

How the data were processed

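RNA-seq was made from polyadenylated RNA. The authors mapped reads to mm10 with TopHat2 2.0.14, used Cufflinks 2.2.1 for transcripts of Gencode M4 (6 biotypes, 200 bp or longer) and combined the 2 replicates of each condition with Cuffdiff into the deposited FPKM values. The table is also called RPKM, and its normalization between libraries is not stated in the sources used here. The authors' calls of dynamic and dox-responsive genes in the same table were not used.

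Ratios had no pseudocount, but counts of genes with a larger ratio used values plus 0.1 FPKM. Medians over lists used all genes of the list, assessed or not, at values plus 0.1 FPKM. Genes at or above 1 FPKM in the higher value were assessed by the 2-fold rule. Named genes are the 8 regulators, the genes of 10 lists written from general knowledge, and the 3 genes most like each regulator that reached 1 FPKM; neighbours of the regulators were named after their values were seen. The members and lists were chosen with earlier results of these data known. Median-ratio factors over 14516 genes ran from 0.990 to 1.03, so values were not rescaled. Steps used genes with 1 transcript of at least 2500 bases in Gencode M21 and transcript length less 200 bases. Neighbours and promoters came from RefSeq. Other fold, minimum, pseudocount and scaling settings were tried. Python 3.11.15, numpy 2.4.6, pandas 2.3.3 and matplotlib 3.10.9 were used, and the calling step was tested on simulated data.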

Additional observations from a re-analysis of the deposited data

Results flagged for a closer look

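T moved in opposite directions on return to serum/LIF without dox, according to the starting time. From 48 h of withdrawal its log2 ratio to the cells re-seeded was 6.50, and from 0 h it was -3.90. The difference between these ratios was not tested, because the table holds 1 combined value per condition.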

How the results depend on the processing

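No paired analysis was possible because the table gives 1 combined value per condition, and for the same reason no replicate could be left out. The counts of regulators rest mostly on the 1 FPKM minimum. With no minimum, the count rose from 3 to 8 between timepoints, from 18 to 41 over the 6 comparisons with 0 h, from 3 to 18 for dox, from 5 to 19 for –dox against the cells re-seeded, from 3 to 9 against continued withdrawal and from 3 to 17 by starting time. With 1 FPKM required in both values the first 4 counts in this order were 1, 3, 1 and 1, and the last was 0. With a 5 FPKM minimum they were 1, 6, 1, 2, 1 and 1. With 1 FPKM added to both values, the count was 1 for dox and 3 for –dox against the cells re-seeded. In 2 alternatives chosen after seeing the data, 1 regulator changed between timepoints without 0 h, and 1 call was made against 24 h. The median log2 ratio of the fibroblast list at 48 h moved from -1.02 to -0.28 with 1 FPKM added. Of the 12 genes most like a regulator, 5 were found with log2(FPKM + 1) and 0 over the 7 timepoints. The other 47 alternatives of such counts and medians stayed within 1.5 times (medians as linear ratios), and no direction reversed in any alternative run. Of 32 single-gene ratios, 13 moved by over 1.5 times with 0.1 FPKM added and 26 with 1 FPKM added, and 1 and 8, of Eomes or Foxa2, fell under 2-fold. With 1 FPKM added the log2 ratio of T went from 6.50 to 2.70 for 48 h –dox against 48 h, and from -5.13 to -1.83 for 24 h against 0 h. That of Gsc at 24 h went from -7.58 to -3.25. With rescaling by median-ratio factors 0 of the 32 moved so far. Values of a few steps, such as Gsc at 24 h, limit the ratios built on them.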

Other observations

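Formative genes gave a different picture from the streak regulators during withdrawal, and neurectoderm genes moved in both directions. All 7 formative genes were higher at 24 h than at 0 h, with a median log2 ratio of 3.27 against -0.01 for all genes assessed, of which 8.64% were higher, and Fgf5 went from 0.164 to 10.3 FPKM. Fgf5, Pou3f1 and Sox3 passed the minimum through the 24 h value alone. Of 10 neurectoderm genes, 1 of 3 assessed was higher at 24 h and none lower. Of all genes, 8.64% were higher and 14.3% lower. The gene called, Pax6, passed the minimum through the 24 h value alone. Sox1, of early neurectoderm, measured 1.02 FPKM at 0 h, 0.464 at 48 h and 13.3 at 96 h. At 48 h it was lower than at 0 h by the 2-fold rule, as were 17% of all genes. Pax6 measured 0.263, 0.946 and 4.41 FPKM at these times. Zfp521 measured 0.688 FPKM at 0 h, 0.0546 at 36 h and 3.39 at 96 h. At 48 h –dox, where T was highest, Sox1 stood at 0.208 FPKM and Pax6 at 0.120, and 5 of 6 neurectoderm genes assessed were lower than at 96 h and none higher, where 6.51% and 6.36% of all genes were. All 5 lower genes passed the minimum through the 96 h value alone, so that this count follows in part from the minimum.

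Lef1, a nuclear effector of Wnt signalling, measured 45.5 FPKM at 48 h, 1.41 at 48 h –dox and 0.448 at 48 h +dox. Trh, a gene of the endoderm and axial list, was lower without dox at 48 h, where T was higher, with 28.2 FPKM –dox and 181.8 +dox.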
